A study of Mus musculus with 6 samples.

Results

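Fibroblast growth factor receptors and the growth factors that act on liver were compared between normal livers and liver tumors of old C3H/HeN mice. The set held 8 genes, chosen by name but with earlier results of these data known. It comprised the receptors Fgfr1, Fgfr2, Fgfr3 and Fgfr4, the receptor-like Fgfrl1, the co-receptor Klb, and the ligands Fgf1 and Fgf21. The 8 genes were covered by 15 probes, of which 14 could be tested, and each of them, of 34741 named on the array, had at least 1 tested probe. Total RNA came from 3 normal livers and 3 macroscopic liver tumors with a Ha-ras mutation, and the Cy3-labelled RNA of a sample was read on a SurePrint G3 Mouse GE array, with 1 array a sample. All mice were untreated males of 74 to 75 weeks, from the second filial generation of a control group kept on standard diet CA-1 and tap water. The tumors arose spontaneously, and the labels do not say whether a tumor and a normal liver, or several tumors, came from the same mouse. The p-values therefore set the difference between tissues against the spread among these samples of a tissue, which cannot be taken as spread between mice.

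Fibroblast growth factors bind receptor tyrosine kinases at the cell surface, which signal through the adaptor Frs2 to Ras and ERK. Fgfr4 is the main receptor of hepatocytes. With the co-receptor Klb it receives Fgf15, an intestinal hormone that represses bile acid synthesis through Cyp7a1. Fgf21 is a hormone made by the liver under fasting and cellular stress, driven by the transcription factors Ppara and Atf4, and it acts on tissues that carry Klb together with Fgfr1. Fgf1 is a ligand for all the receptors, and Fgfrl1 resembles them outside the cell but has no kinase domain.

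The array read these genes through 60-base probes, and several results below turn on which stretch of a transcript a probe covers. The pair of probes shown first lies in the part of Fgfr1 and Fgfr4 that encodes the tyrosine kinase domain. They are printed because related receptors are similar there, with capitals marking the 35 of 58 aligned bases that the 2 probes share. The positions are those of the array design on mm9, chr8:26684061-26684120 for Fgfr1 and chr13:55269212-55269271 for Fgfr4, both on the plus strand.
Fgfr1 A_55_P1967022: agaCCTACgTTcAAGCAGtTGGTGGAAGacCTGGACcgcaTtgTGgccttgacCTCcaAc
Fgfr4 A_55_P2121871: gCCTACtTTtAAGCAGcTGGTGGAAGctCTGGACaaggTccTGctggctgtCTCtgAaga

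The next 3 lines give the first 30 bases of further probes, with runs of at least 3 T in capitals, because 2 of these probes were unusually rich in T. The first (mm9 chr8:26685072-26685131, plus strand) is the brightest Fgfr1 probe, the second (chr8:26685820-26685879, plus strand) another Fgfr1 probe that starts 748 bases from it, and the last (chr7:52869305-52869364, minus strand) the only Fgf21 probe.
Fgfr1 A_55_P2057777: gagacgcccagggtagcatccgttgctata
Fgfr1 A_55_P1967015: agccttagagggTTTgTTTTTgTTTTTTgt
Fgf21 A_52_P235347: TTTTTgggTTTccacttaTTTattacgggt
Of all bases, T made up 15% in the first, 60% in the second and 63.3% in the Fgf21 probe. Of all probes on the array, 0.0341% had at least as much T as the second and 0.0108% at least as much as the Fgf21 probe.

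Between 44.7% and 48.9% of spots on an array were well above background, no spot was saturated, and arrays of one tissue correlated at 0.980 to 0.992 against 0.914 to 0.950 between tissues. The normal livers shared a slide and scan and the tumors shared another, so that slide and tissue cannot be told apart. Local background had medians of 42 to 45 beside the spots of normal livers and 22 to 23 beside those of tumors. Values below are scaled signals, the processed signal divided by the array's 75th percentile. Log2 fold changes are tumor minus normal with their SE, and a gene was called when its adjusted p in limma was under 0.05. Of 18567 tested genes 34.2% were called, 13.1% higher and 21.0% lower in the tumors, and the median log2 fold change of all tested genes was -0.13. Scaled by spike-in controls, the median of all tested probes moved from -0.13 to 0.03, and 60.1% of the called probes were higher in place of 37.8%. A probe's brightness depends on its sequence, so that signals of different genes were not ranked against each other.

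Among the 8 genes, Fgfr2 rose in the tumors and Fgfr1, Fgfr4 and Fgf1 fell, while Fgfr3, Fgfrl1, Klb and Fgf21 did not pass the test. These 4 of 8 calls stand beside the 34.2% of all genes called. The median log2 fold change of the 8 genes was -0.45. The groups did not overlap for 5 of the genes, where 51.8% of all tested genes did not overlap. With 3 arrays against 3, a two-sided exact permutation test cannot give a p below 0.1, and it gave 0.1 for these 5.

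**Figure D1:**
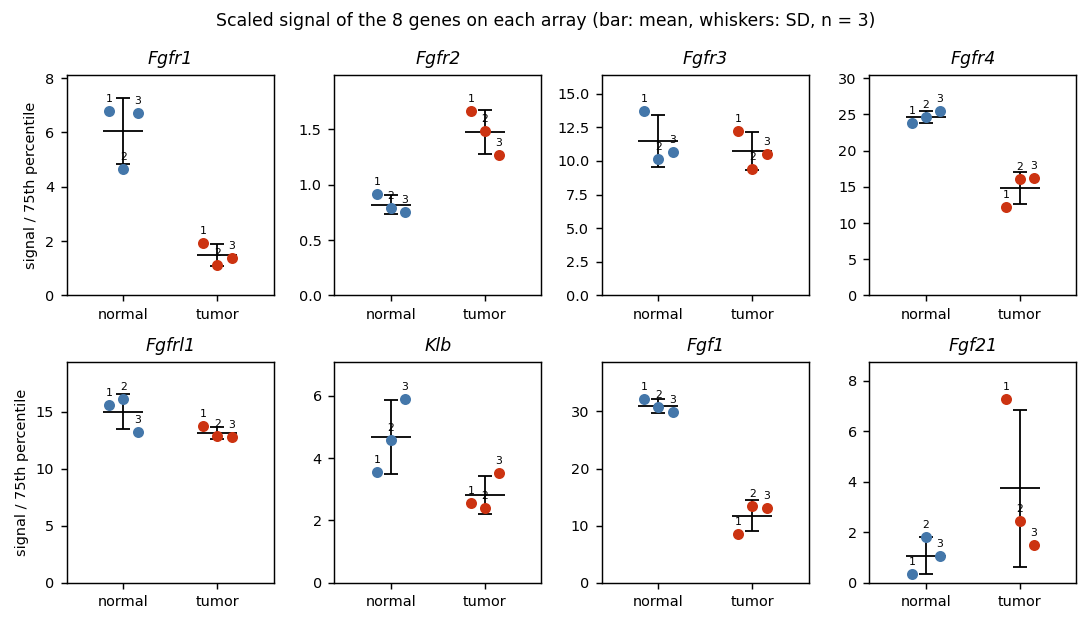
Scaled signal (processed signal divided by the 75th percentile of the array, linear axis from 0) of the brightest probe of each gene in 3 normal livers (blue) and 3 liver tumors (red), with replicate numbers; bars show the mean and whiskers the SD. The tumors lie apart from the normal livers for Fgfr1, Fgfr2, Fgfr4, Klb and Fgf1, while liver tumor 1 reaches 7.29 for Fgf21 and the other tumors stay near normal liver 2.

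Fgfr1 fell. This receptor is found mainly on mesenchymal cells and carries the Fgf21 signal in fat. Its brightest probe measured 6.77, 4.64 and 6.72 in normal livers 1, 2 and 3 and 1.91, 1.11 and 1.40 in liver tumors 1, 2 and 3. Every tumor was below every normal liver, and the lowest normal liver was still above the highest tumor by a wide margin. The mean was 6.04 ± 1.22 in normal livers and 1.47 ± 0.406 in tumors (SD, n = 3), a log2 fold change of -2.05 (SE 0.25) with an adjusted p of 0.00244.

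The 3 probes of Fgfr1 did not move alike. The probe in the kinase stretch printed above measured 0.665, 0.299 and 0.509 in the normal livers and 0.109, 0.113 and 0.143 in the tumors, with a log2 fold change of -1.95 (SE 0.30, adjusted p 0.00514). It was well above background on 1 of 3 tumor arrays. The T-rich probe measured 0.932, 0.716 and 0.662 in the normal livers and 0.873, 0.741 and 0.766 in the tumors. These groups overlapped, and the log2 fold change was 0.05 (SE 0.16, adjusted p 0.820). Within each array, the log2 difference between the brightest and the T-rich probe was 2.97 ± 0.337 in normal livers and 0.86 ± 0.273 in tumors, with no overlap. Between the brightest and the kinase probe the difference changed by -0.10 (SE 0.33), with overlap. The part of the T content in the disagreement was not tested.

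Fgfr2, a receptor whose splice forms divide epithelial from mesenchymal signalling, was the only one of the 8 genes called higher, though with spike-in scaling Fgf21 was called too. Its brighter probe measured 0.913, 0.793 and 0.754 in the normal livers and 1.66, 1.49 and 1.27 in the tumors. All tumors were above all normal livers, with means of 0.820 ± 0.0831 and 1.47 ± 0.197 (SD, n = 3), a log2 fold change of 0.84 (SE 0.14) and an adjusted p of 0.00750. The other probe shares 42 of its 60 bases with the first on the genome, so it is no independent measurement. It measured 0.247, 0.211 and 0.286 in the normal livers and 0.706, 0.647 and 0.572 in the tumors. Its log2 fold change was 1.38 (SE 0.15, adjusted p 0.00188). Both probes put Fgfr2 higher in the tumors, the dimmer probe by more.

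Fgfr3, a receptor best known from cartilage and bladder, kept similar signals. Its brightest probe measured 13.7, 10.1 and 10.66 in the normal livers and 12.2, 9.42 and 10.5 in the tumors. The groups overlapped, with a log2 fold change of -0.10 (SE 0.16, adjusted p 0.687) and an interval at 95% from -0.49 to 0.30. The sign turned with the scaling, to 0.015 by quantile normalization, 0.026 with normexp background correction and 0.064 with spike-in controls, and to 0.036 without normal liver 1. A dimmer probe gave -0.31 (SE 0.19, adjusted p 0.263), and the remaining probe was too dim on all 6 arrays to be tested.

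Fgfr4, the hepatocyte receptor, was lower in every tumor. Its brighter probe measured 23.8, 24.7 and 25.4 in the normal livers and 12.2, 16.0 and 16.3 in the tumors. The normal livers were close together, and liver tumor 1 was the lowest. The means were 24.6 ± 0.825 and 14.8 ± 2.25 (SD, n = 3), with a log2 fold change of -0.74 (SE 0.14) and an adjusted p of 0.0106. The probe in the kinase stretch measured 1.80, 1.93 and 1.91 in the normal livers and 1.01, 1.38 and 1.32 in the tumors. It gave -0.62 (SE 0.15, adjusted p 0.0223), so that both probes fell. With arrays scaled by spike-in controls the log2 fold change was -0.58 and the call was lost (adjusted p 0.141).

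Fgfrl1, the receptor-like protein without a kinase, measured 15.6, 16.2 and 13.3 in the normal livers and 13.8, 12.9 and 12.8 in the tumors. Normal liver 3 lay among the tumors, the log2 fold change was -0.19 (SE 0.12, adjusted p 0.274), and the interval at 95% ran from -0.47 to 0.10. Within arrays, Fgfr4 fell relative to Fgfrl1, with a log2 difference of 0.72 ± 0.190 in normal livers and 0.16 ± 0.291 in tumors (no overlap, change -0.56, SE 0.20).

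Klb, the co-receptor that Fgf15 and Fgf21 need for binding, stood at the threshold. It measured 3.55, 4.59 and 5.91 in the normal livers and 2.55, 2.41 and 3.52 in the tumors. Every tumor was below every normal liver, but liver tumor 3 only just below normal liver 1. The means were 4.68 ± 1.18 and 2.83 ± 0.603 (SD, n = 3), with a log2 fold change of -0.72 (SE 0.23), an adjusted p of 0.0559 and an interval at 95% from -1.28 to -0.16. Klb was called under 7 of 19 alternatives, among them leaving out normal liver 1 (-0.90) or liver tumor 3 (-0.89), and its adjusted p ranged from 0.0241 to 0.205 over all of them. Relative to Fgfr4 on the same array, Klb measured -2.42 ± 0.320 in normal livers and -2.40 ± 0.290 in tumors on the log2 scale. That difference changed by 0.02 (SE 0.25), with the groups overlapping.

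Fgf1, a growth factor without a classical secretion signal that lowers glucose when given to mice, was lower in every tumor. Its brighter probe measured 32.2, 30.8 and 29.8 in the normal livers and 8.60, 13.4 and 13.1 in the tumors. The normal livers were tightly grouped and every tumor was far below them, liver tumor 1 the lowest. Means were 31.0 ± 1.21 and 11.7 ± 2.71 (SD, n = 3), a log2 fold change of -1.43 (SE 0.19) with an adjusted p of 0.00342. The other probe measured 1.39, 1.45 and 1.07 in the normal livers and 0.234, 0.483 and 0.357 in the tumors. It gave -1.91 (SE 0.28, adjusted p 0.00436). Within arrays Fgf1 fell further than Fgfr4, the log2 difference between them going from 0.33 ± 0.105 to -0.36 ± 0.135 with no overlap.

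Fgf21 varied most between samples of the same tissue. It measured 0.363, 1.82 and 1.05 in the normal livers and 7.29, 2.43 and 1.502 in the tumors. Liver tumor 3 lay below normal liver 2, so the groups overlapped, and liver tumor 1 stood well above all other samples. The means were 1.08 ± 0.728 and 3.74 ± 3.11 (SD, n = 3), with a log2 fold change of 1.75 (SE 0.76), an adjusted p of 0.121 and an interval at 95% from -0.06 to 3.57. The exact permutation p was 0.2. Scaled by spike-in controls the log2 fold change was 1.91 and was called (adjusted p 0.0149), the only 1 of 19 alternatives to do so. Without liver tumor 1 it was 1.11 and without normal liver 2 it was 2.27, neither of them called. This result rests on 1 probe, the T-rich sequence printed above, and the part of its composition was not tested.

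**Figure D2:**
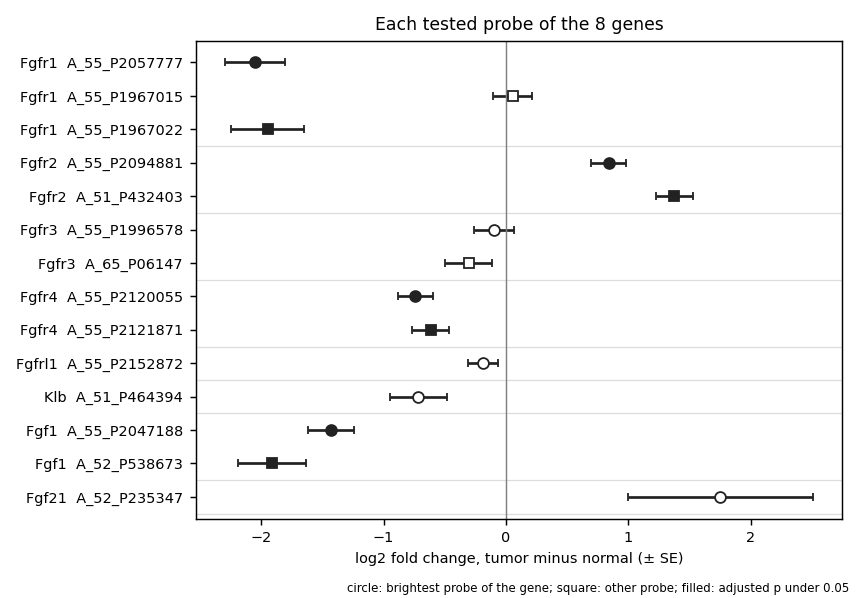
Log2 fold change (tumor minus normal, horizontal axis, with SE) of each of the 14 tested probes; circles mark the brightest probe of a gene, squares other probes, and filled symbols an adjusted p under 0.05 in limma. The probe pairs of Fgf1, Fgfr2 and Fgfr4 share a sign, while 1 of the 3 Fgfr1 probes sits at 0.05 and the other 2 near -2.

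By probe, 8 of the 14 tested probes were called, beside 33.1% of all tested probes. They are the probes of Fgf1, Fgfr2 and Fgfr4 and 2 of the 3 Fgfr1 probes. The 2 probes of Fgfr2 were higher, where 12.5% of all tested probes were called higher, and the other 6 were lower, where 20.6% were. Unless the methods' t-test was paired by replicate number, Fgf1, Fgfr1 and Fgfr2 were called under every alternative. The paired form, after Benjamini-Hochberg adjustment, called no probe of the array, with 7421 probes at an unadjusted p under 0.05.

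**Figure D3:**
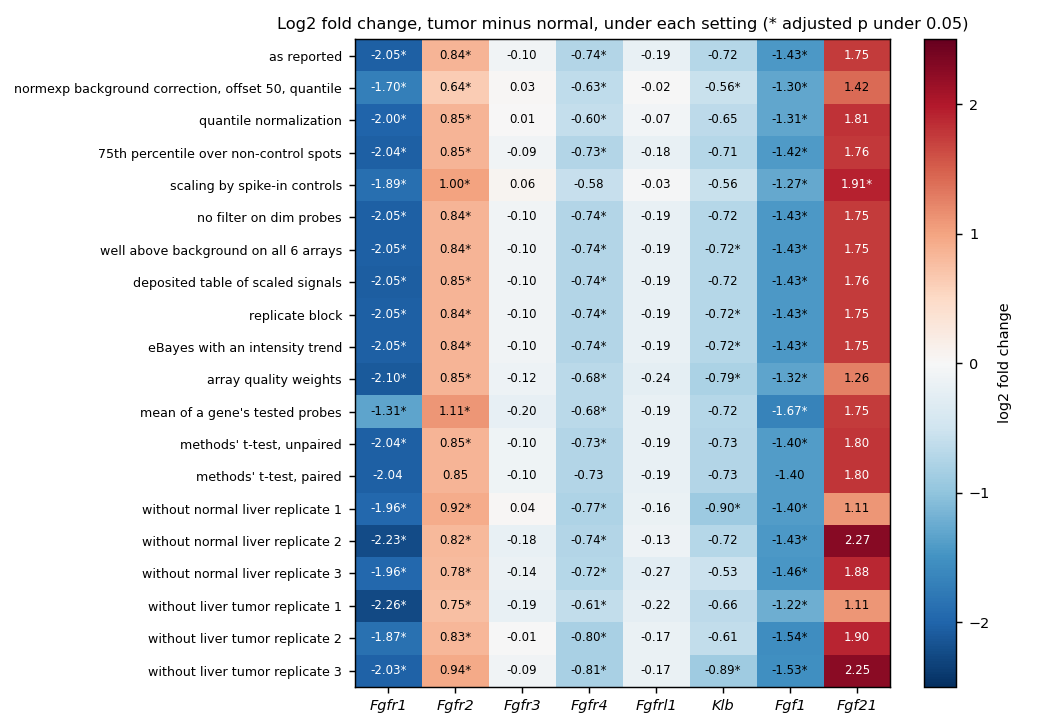
Log2 fold change (tumor minus normal, color and printed value) of each gene, in columns, as reported and under 19 alternatives, in rows; an asterisk marks an adjusted p under 0.05. Fgfr1, Fgfr4, Fgfrl1, Klb and Fgf1 are below 0 and Fgfr2 and Fgf21 above 0 in every row, while Fgfr3 changes sign.

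On RefSeq annotation of GRCm38.p6, Fgfr3 (5:33721724-33737068), Klb (5:65348411-65386957) and Fgfrl1 (5:108694229-108706950) lie on chromosome 5, Fgf21 (7:45613890-45615490) and Fgfr2 (7:130162451-130266808) on chromosome 7, Fgfr1 (8:25518759-25575718) on chromosome 8 and Fgfr4 (13:55152818-55168759) on chromosome 13. On chromosome 7 Fgfr2 was called and Fgf21 was not, and none of the 3 genes on chromosome 5 was called. RefSeq promoters of 300 bases were listed for 6 of the 8 genes. Their CpG count ranged from 4 in Fgfr2 and 9 in Fgf21 to 37 in Fgfrl1, where the median of all 32851 promoters was 7.

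The Fgf21 promoter is printed because its known drivers were measured on the same arrays. The 150 bases before the start (GRCm38.p6 chr7:45615491-45615640, minus strand, from RefSeq) are shown, with capitals for matches to TGATGNAA, the core that Atf4 dimers bind, and to CACGTG, a core of basic helix-loop-helix factors.
Fgf21 promoter: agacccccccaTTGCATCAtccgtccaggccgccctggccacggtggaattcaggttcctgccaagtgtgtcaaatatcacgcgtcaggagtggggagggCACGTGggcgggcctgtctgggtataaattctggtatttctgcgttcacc
On either strand, TGATGNAA was found in 3.97% and CACGTG in 7.15% of all promoters of that table, and the motifs do not overlap here. CACGTG was also found in the promoters of Fgfr2 and Fgfrl1, and TGATGNAA in none of the other listed genes of the set. The matches start 139 and 50 bases before the Fgf21 start and describe letters only.

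Of 20 further FGF ligands, 6 could be tested, and 2 fell and none rose, near the 34.2% of all tested genes called. Over all tested genes 13.1% were called higher and 21.0% lower, which also stands beside the counts of the lists below. Fgf23, the bone hormone of phosphate balance, measured 10.8, 11.6 and 8.01 in the normal livers and 2.15, 4.36 and 3.53 in the tumors. That is a log2 fold change of -1.64 (SE 0.28, adjusted p 0.00769), with no overlap. Fgf18 fell by 1.05 (SE 0.25, adjusted p 0.0209) close to background, with 1 of 3 tumor arrays well above it. Without any 1 of the normal livers, or without liver tumor 1, Fgf18 lost its call (-1.12 to -0.96) and the list held 1 call. It was not called with normexp either (-0.25). The tested ligands had a median of -0.37, beside -0.13 for all genes. Not well above background on any array were 11 ligands, among them Fgf15 and also Fgf2, Fgf7, Fgf9 and Fgf10, which mesenchymal and epithelial cells exchange.

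Co-receptors and binding proteins of FGFs moved both ways, with 3 of 8 tested genes higher, 3 lower and 2 not called. Gpc3, a heparan sulfate proteoglycan that is an oncofetal marker of liver cancer, had no normal liver with a signal well above background. It measured 24.2, 24.4 and 10.3 in the tumors and was at least 139.6-fold higher there (adjusted p 3.58e-04). The fold is a bound, taken against the lowest signal that the normal arrays measured as well above background. Gpc1, a related proteoglycan, measured 8.38, 7.59 and 7.12 in the normal livers and 22.7, 18.8 and 14.6 in the tumors (log2 fold change 1.26, SE 0.18, adjusted p 0.00421). The FGF-receptor-binding Flrt1 fell by 1.27 (SE 0.25, adjusted p 0.0115). The syndecan Sdc3 fell by 0.90 (SE 0.24, adjusted p 0.0295), and lost its call without normal liver 1 or 3 or liver tumor 2 or 3 (-0.88 to -0.71), and with spike-in scaling (-0.74). Kl, the kidney co-receptor, was below it on all 6 arrays. The list's median was -0.06 and turned positive by quantile normalization (0.07), normexp (0.12) and spike-in scaling (0.10), and with spike-in scaling 3 of the 8 genes were called.

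Of 12 tested genes that act next to the receptors 1 was higher, 3 were lower and 8 were not called, with a median of -0.21. The share called was near the 34.2% of all tested genes. The exchange factor Sos1 fell by 1.17 (SE 0.25, adjusted p 0.0159), with 1 of 3 tumor arrays well above background, and Plcg1, the phospholipase that receptors phosphorylate, fell by 0.63 (SE 0.11, adjusted p 0.00738). Sos2 had a log2 fold change of -0.37 and the adaptor Shc1 of 0.39, and both lost their calls without any single array (-0.41 to -0.32 and 0.35 to 0.41). Sos1 lost its call with normexp (-0.21) and without normal liver 1 (-1.10) or 2 (-1.17), and Plcg1 with spike-in scaling (-0.47). Leaving out 1 array left 1 or 2 calls in the list, and 1 was left with spike-in scaling. Frs2, the docking protein that FGF receptors phosphorylate, measured 4.86, 4.84 and 4.93 in the normal livers and 3.999, 4.46 and 4.06 in the tumors. Its groups were apart, at -0.23 (SE 0.10, adjusted p 0.136), and Frs2 is named here after its values were seen.

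Feedback and target genes of the FGF-ERK pathway were mostly higher, with 9 of 11 tested genes up, 1 down and 1 not called. Their median log2 fold change was 1.21, beside -0.13 for all genes, and lay between 1.003 and 1.37 under every scaling. As background, these genes answer ERK activity from any receptor and from Ras itself. All tumors here carry a Ha-ras mutation, and what raised these genes was not tested. Egr1, an immediate early transcription factor, measured 0.555, 1.17 and 2.10 in the normal livers and 36.4, 40.5 and 14.1 in the tumors (log2 fold change 4.63, SE 0.58, adjusted p 0.00289). Ccnd1, the G1 cyclin, rose by 2.14 (SE 0.23, adjusted p 0.00173). Spry1, an inhibitor of receptor signalling, measured 1.07, 1.47 and 1.41 against 4.18, 6.65 and 3.06, a rise of 1.76 (SE 0.29, adjusted p 0.00690). The ERK phosphatase Dusp5 was not well above background in the normal livers and at least 3.6-fold higher in the tumors (adjusted p 4.21e-05).

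The other called genes of that list were Dusp6, Etv4, Etv5, Spred1 and Spred2, which rose by 0.77 to 1.69, and Etv1, which fell by 1.01 (SE 0.27, adjusted p 0.0296). Etv1, Etv4 and Etv5 are close relatives and FGF target genes in the embryo, and Etv1 was lower where the others were higher. Etv1 lost its call with normexp, with spike-in scaling, and without normal liver 2 or 3 or liver tumor 2 or 3 (-0.97 to -0.81 for these arrays). Without an array, Etv4 lost its call in 5 cases of 6, all but liver tumor 3 (0.89 to 1.36), Spred2 without normal liver 1 or 2 or liver tumor 1 or 2 (0.63 to 0.71), and Dusp6 without normal liver 2 (1.67) or liver tumor 2 (1.604). Spred2 was not called with normexp either (0.34). Of the 11 tested genes, 6 were called without normal liver 2 and 6 without liver tumor 2.

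**Figure D4:**
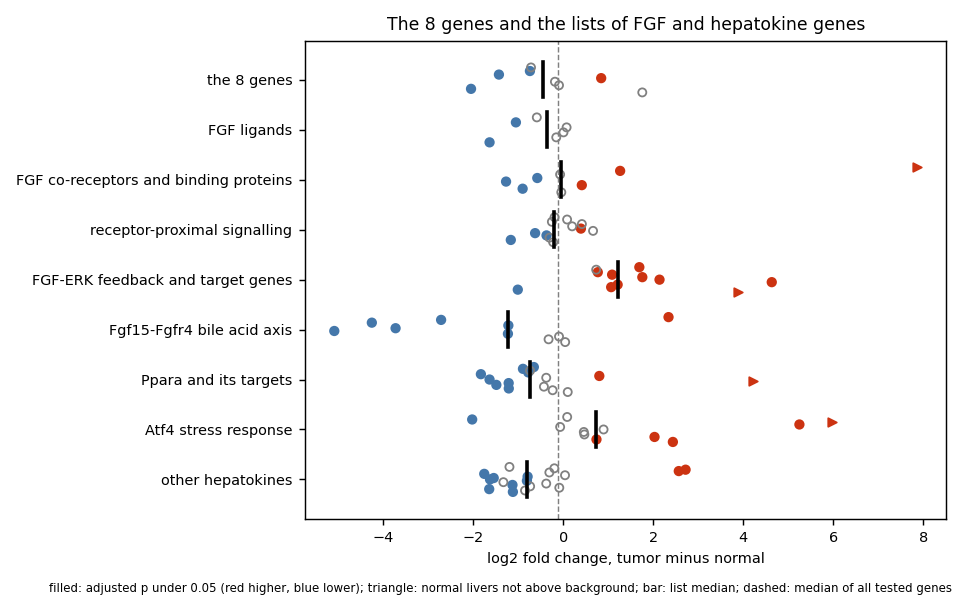
Log2 fold change (tumor minus normal, horizontal axis) of the 8 genes and of each tested gene of 8 lists, 1 point a gene; filled points had an adjusted p under 0.05 (red higher, blue lower), triangles mark fitted values of genes not above background in normal livers, bars the list median and the dashed line the median of all genes (-0.13). The feedback list has its median at 1.21 and the bile acid list at -1.23.

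Genes listed for the Fgf15-Fgfr4 bile acid axis, which cover synthesis, transport and regulation, were mostly lower. Of 10 tested, 6 were down, 1 up and 3 not called, with a median of -1.23. Control of these genes by Fgfr4 was not tested. Cyp7a1, the rate-limiting enzyme of bile acid synthesis, measured 4.27, 12.2 and 5.13 in the normal livers and 0.0877, 0.280 and 1.56 in the tumors. The groups were apart, with 2 of 3 tumor arrays well above background (log2 fold change -4.25, SE 1.02, adjusted p 0.0218). Cyp7b1, the oxysterol hydroxylase of the alternative pathway, measured 291.6, 265.2 and 363.3 against 0.866, 23.4 and 35.2, a fall of 5.09 (SE 1.33, adjusted p 0.0292). Cyp8b1, which makes cholic acid, fell by 3.73 (SE 0.85, adjusted p 0.0187), and Cyp27a1, the sterol 27-hydroxylase, by 2.72 (SE 0.54, adjusted p 0.0118). The study had itself picked Cyp8b1 from these tissues for its methylation and expression, so it is not independent evidence of the direction. Liver tumor 1 was the lowest tumor for all 4 enzymes. It was also the lowest for Fgfr4 and Fgf1 and the highest for Fgf21. However, it was the highest tumor for Fgfr1 (1.91), Fgfr2, Fgfr3 and Fgfrl1, and Klb was lowest in liver tumor 2 (2.41). By arithmetic, leaving out a tumor below the tumor mean makes a fall smaller, and a tumor above it larger. Without liver tumor 1 the log2 fold changes were -3.28 for Cyp7a1, -3.41 for Cyp7b1, -2.75 for Cyp8b1 and -2.07 for Cyp27a1. All 4 genes stayed called there. Without liver tumor 3 the falls were larger for all 4 genes, Cyp7a1 (-5.36), Cyp7b1 (-6.08), Cyp8b1 (-4.33) and Cyp27a1 (-3.19). Without liver tumor 2 they were larger for Cyp7b1 (-5.78), Cyp8b1 (-4.10) and Cyp27a1 (-2.89), while Cyp7a1 was at -4.12.

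The bile acid receptor Nr1h4 and the export pump Abcb11 also fell, by 1.22 (SE 0.23) and 1.23 (SE 0.20), while the exporter subunit Slc51b rose by 2.34 (SE 0.56, adjusted p 0.0217) from a level well above background in 1 of 3 normal livers. Slc51b was not called without normal liver 2 or 3 or liver tumor 3 (1.91 to 2.13). Nr0b2, the repressor that Nr1h4 induces, measured 1.44, 3.33 and 4.16 in the normal livers and 1.66, 3.28 and 3.998 in the tumors, which overlapped almost fully. The calls depended on single arrays. Cyp7b1 lost its call without any 1 normal liver (-5.19 to -4.96), Cyp7a1 without normal liver 2 or 3 or liver tumor 2 (-4.42 to -3.79) and Cyp8b1 without normal liver 1 or 2 (-3.53 and -3.49). The list then held 3 calls without normal liver 2 and 4 without normal liver 3.

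Ppara and its targets, which answer fasting together with Fgf21, were mostly lower, with 8 of 15 down, 2 up and 5 not called, and a median of -0.74. The fatty acid hydroxylase Cyp4a10 fell by 1.64 (SE 0.36, adjusted p 0.0171) and the lipase inhibitor Angptl4 fell by 1.83 (SE 0.43, adjusted p 0.0207). Ppara itself was at -0.38 (SE 0.15, adjusted p 0.103). Higher were Cpt1a, the carnitine transferase that admits fatty acids to mitochondria, by 0.80 (SE 0.23, adjusted p 0.0381), and Vnn1, a pantetheinase, which was at least 13.5-fold higher than in normal livers, where it was not well above background (adjusted p 0.00319). Without normal liver 2 the list held 6 calls. Cpt1a kept its call without liver tumor 2 and lost it without any other array (0.58 to 0.91). Cyp4a10 lost its call without normal liver 2 or 3 (-1.49 and -1.53), and Angptl4 without those or without liver tumor 1 or 3 (-1.81 to -1.46).

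Of the Atf4 stress response, the other known driver of Fgf21, 5 of 11 genes rose, 1 fell and 5 were not called, with a median of 0.74. Phgdh, the first enzyme of serine synthesis, measured 0.148, 0.151 and 0.188 in the normal livers, 2 of them well above background, and 8.18, 7.72 and 3.63 in the tumors (log2 fold change 5.25, SE 0.32, adjusted p 2.32e-04). Psat1, the next enzyme, was not well above background in the normal livers and at least 23.9-fold higher in the tumors (adjusted p 0.00170), while its other probe gave a log2 fold change of 2.22. Trib3, a pseudokinase induced by stress, measured 3.61, 6.44 and 8.33 against 36.5, 26.4 and 31.7 (2.43, SE 0.31, adjusted p 0.00307).

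Atf3, a stress-induced transcription factor, rose by 2.03 (SE 0.56, adjusted p 0.0337), but lost its call without any 1 normal liver and without liver tumor 1 or 3 (1.48 to 2.18), and without liver tumor 2 it was at 2.65. Cth, the enzyme that makes cysteine, fell by 2.02 (SE 0.30, adjusted p 0.00491), against the direction of the list. Not called were Atf4 itself (-0.07), the apoptosis factor Ddit3 (0.47), the asparagine synthetase Asns (0.89), Chac1 (0.46) and Eif4ebp1 (0.09).

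**Figure D5:**
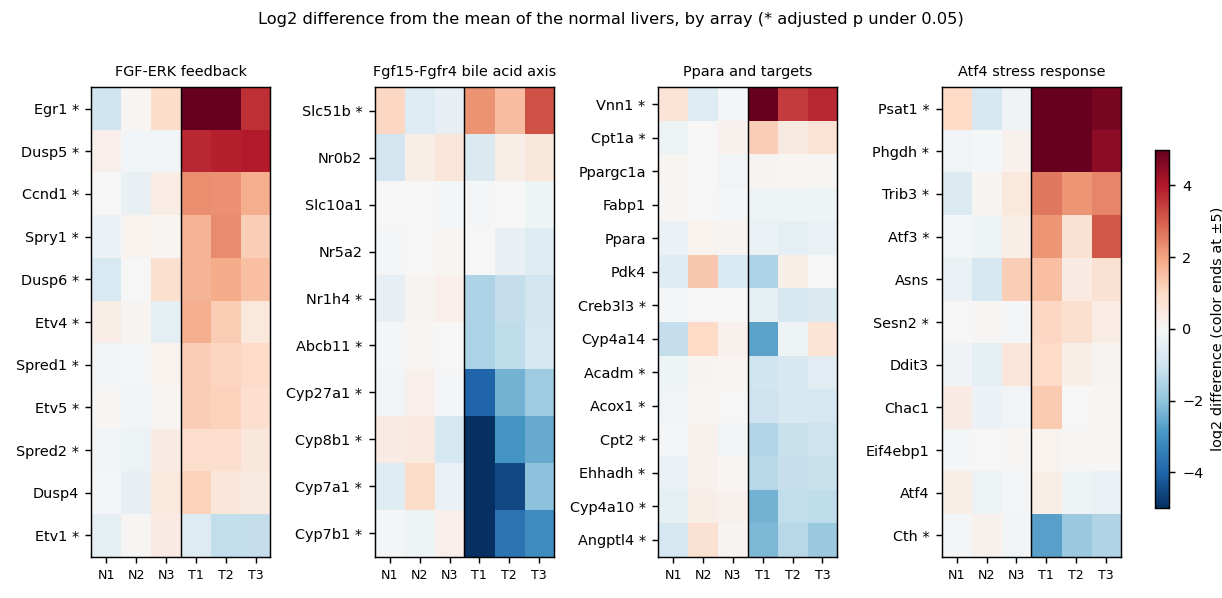
Log2 difference of each array from the mean of the normal livers (color, ends at ±5), for tested genes of 4 lists in rows and normal livers 1 to 3 (N1 to N3) and liver tumors 1 to 3 (T1 to T3) in columns; asterisks mark an adjusted p under 0.05. The bile acid enzymes are lowest in liver tumor 1, and the feedback genes Egr1, Dusp5, Ccnd1 and Spry1 are higher in all 3 tumors.

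Fgf21 is 1 of many hormones the liver secretes. Of 19 other tested hepatokines 8 fell, 2 rose and 9 were not called, with a median of -0.81. Angptl8, a feeding-induced regulator of lipoprotein lipase, measured 24.7, 21.0 and 38.0 in the normal livers and 204.3, 149.5 and 183.3 in the tumors (log2 fold change 2.72, SE 0.24, adjusted p 8.60e-04). Gdf15, a stress hormone that lowers appetite, measured 0.941, 1.37 and 1.48 against 9.94, 8.96 and 4.45 (2.57, SE 0.34, adjusted p 0.00333). These 2 rose in all tumors, where Fgf21 was raised above the normal range in liver tumors 1 and 2 and not in 3.

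The growth hormone mediator Igf1 fell by 1.65 (SE 0.33, adjusted p 0.0121), with its 5 probes between -2.001 and -0.41. The chemotactic hepatokine Lect2 fell by 1.76 (SE 0.50, adjusted p 0.0369), but lost its call without normal liver 1, 2 or 3 or liver tumor 2 (-1.98 to -1.65) and by quantile normalization (-1.58), and without liver tumor 1 it was at -1.16. Gdf2, Angptl6, Inhbc, Tsku and Fetub fell too, with log2 fold changes of -1.63 to -0.81. Of these, Tsku was called without liver tumor 2 and lost its call without any other array (-1.34 to -0.85), and Fetub was not called with spike-in scaling. Ahsg, or fetuin A, stayed at -0.20 (SE 0.10, adjusted p 0.171) and Selenop, the selenium carrier, at 0.04 (SE 0.10, adjusted p 0.796).

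The tissues were checked with markers of liver cells. Of 12 hepatocyte markers 1 rose, 1 fell and 10 were not called, and their summed signal was 10400 to 11150 in normal livers and 10420 to 10970 in tumors, so that hepatocyte markers were bright in both tissues, as the label liver implies. Of 11 markers of stellate cells and fibroblasts, cells in which Fgfr1 is usually found, 6 fell and 2 rose, and their summed signal was 93.3 to 109.7 in normal livers and 31.8 to 52.9 in tumors. Most of that sum was Dcn, a matrix proteoglycan (75.8 to 96.4 against 17.8 to 37.7), and the other 10 markers summed to 13.3 to 17.8 in normal livers and 14.0 to 19.0 in tumors. Of 8 macrophage markers 5 fell and none rose (79.7 to 128.4 against 41.3 to 65.3), and of 10 endothelial markers 3 fell and none rose (110.7 to 125.7 against 86.5 to 97.02). The endothelial median was -0.005, beside -0.13 for all tested genes. These counts depended on the scaling. With spike-in scaling 1 endothelial marker rose and none fell, and 3 macrophage markers fell and none rose. Of the stellate cell and fibroblast markers, 4 fell and 3 rose there. Of 5 tested cholangiocyte markers none was called (2.28 to 2.99 against 1.95 to 2.23), with Krt7 and Epcam too dim to test, and of 4 tested neutrophil markers none (146 to 166.6 against 129.4 to 180), with Mpo and Retnlg too dim. Of the T and B lymphocyte markers 3 were tested, with a sum of 64.9 to 69.0 against 140.1 to 243.5 that was nearly all the brighter of 2 Cd4 probes. That probe rose by 1.59, while the other Cd4 probe gave -0.48. The other markers, Cd3e and Cd79a, were not called and summed to 6.16 to 8.05 against 6.21 to 8.13, while Cd3g, Cd8a and Ms4a1 were too dim. In bulk tissue, fewer cells of a type and less RNA per cell cannot be told apart, and the part of these cell types in the changes of Fgfr1 and the other genes was not tested.

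The genes whose signals over the 6 arrays were most like those of the set were sought among 16481 genes well above background on all arrays. For Fgfr4 they were Hsd3b3 (Pearson r 0.9995), Bag1 (0.9994) and Gabra3 (0.999). For Klb they were Ears2 (0.9967), Sri and Api5 (both 0.9963), and for Fgf1 the probes named AK080717 (0.9992) and Gm7298 (0.999). The 6 points are 2 tissues of 3, each on its own slide, and the values describe these arrays only.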

How the data were processed

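For each of 3 normal livers and 3 liver tumors, the authors deposited the Feature Extraction output of a 1-colour array, version 10.7.3.1 by the file headers (12.0.3.1 in the submitters' processing notes). The software had removed background and spatial trends from the intensity that it calls the processed signal, with flags (other columns) for spots above background. A second deposited table gives the ratio of that intensity to the 75th percentile of each array. Set against the intensities it agreed within rounding, with the percentile taken over all spots.

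Each processed signal was divided by the 75th percentile of its array over all spots and taken to log2. Control and outlier spots were removed and spots of a probe averaged. A probe was tested if it was well above background in every sample of a tissue, which kept 24901 of 55681, with limma 3.58.1 (lmFit and eBayes, two-sided, Benjamini-Hochberg over all tested probes, threshold 0.05) in R 4.3.3. Tables were made in Python 3.11.15 (pandas 2.3.3, numpy 2.4.6), exact permutation tests with scipy 1.17.1 and figures with matplotlib 3.10.9. Each gene stands for its brightest probe by mean log2 signal. Probes were named through RefSeq annotation of GRCm38.p6, by accession for 27235, by symbol for 3581 and by synonym for 565, and kept the name of the array design otherwise. For a gene whose probe no array of a tissue measured well above background, only a lower bound of the fold is given. It sets the mean of the bright tissue against, for each dim array, the larger of the probe's signal and the lowest signal that was well above background there, averaged on the log2 scale. Medians of the pathway lists were the same with such genes at their bound.

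The genes, the 8 lists of 119 pathway genes and the 7 lists of cell markers were chosen with earlier results of these data known. Named were all 8 genes, up to 4 called genes of each pathway list with the largest change, counts of each marker list, and for Fgfr4, Klb and Fgf1 the 3 most correlated genes. A few genes that this rule or a list holds are counted but not reported here by name. Other genes named in the text were chosen after their values were seen. The number of arrays limits the precision. The fit was tested on simulated data: over 24889 probes, limma recovered 144 of 200 changed probes, none with the wrong sign, and called 8 unchanged ones (42.6% at 2-fold, 81.8% at 4-fold and 92.4% at 8-fold). The simulation changed far fewer probes than the 8239 called in the data and held no slide effect. Its rates therefore do not carry over to these data. All columns of the authors' table were matched to samples.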

Additional observations from a re-analysis of the deposited data

How the results depend on the processing

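Each of 19 alternatives was run on the 8 genes and on each list's count of calls, and 18 on the count of probes, which the mean of a gene's probes does not give: normexp with an offset of 50, quantile normalization, the percentile over non-control spots, spike-in scaling, no filter on dim probes, probes well above background on all 6 arrays, the deposited table, the replicate number as a block, an intensity trend, array weights, the mean of a gene's probes, the methods' t-test unpaired and paired, and each array left out. Fgf1, Fgfr1, Fgfr2, Fgfr4, Fgfrl1, Klb and Fgf21 kept their direction in all of them. The cause of the changes below was not tested. Only 6 arrays, on a slide for each tissue, limit all results, and signals near background bear only bounds.

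Fgfr3 reversed to 0.026 with normexp, 0.015 with quantile normalization and 0.064 with spike-in scaling, and ranged from -0.19 to 0.036 with an array left out. With spike-in scaling Fgf21 (1.91) gained a call and Fgfr4 (-0.58) lost it. Klb gained a call with normexp (-0.56), the strict filter (-0.72), the trend (-0.72) and array weights (-0.79), and ranged from -0.90 to -0.53 with an array left out. In the paired t-test Fgf1 (-1.40), Fgfr1 (-2.04), Fgfr2 (0.85) and Fgfr4 (-0.73) lost their calls, and 0 of the 8 genes, 0 genes of any list and 0 probes were called after adjustment, with 7421 probes at an unadjusted p under 0.05 and 8239 called by limma.

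The labels number the samples 1 to 3 in both tissues, and the study names a paired t-test in its methods. Same-numbered deviations correlated at 0.069, 0.132 and 0.051, and not every sample correlated best with its own number. The numbers were not taken as pairs, though a check on 3 samples of each tissue cannot exclude pairing. With the replicate block Klb was called (-0.72), receptor-proximal genes called were 2 in place of 4, and probes called were 7021.

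Probes called were 4957 with spike-in scaling, 4674 without a filter, 5262 in the unpaired t-test and 4954 to 7171 with an array left out, lowest without normal liver 2. Without a filter the calls were 3 among co-receptors, 1 among ligands, 6 among feedback genes, 3 on the bile acid axis, 6 among Ppara targets and 1 among receptor-proximal genes. In the unpaired t-test they were 2 in the Atf4 list, 1 among ligands, 5 among feedback genes, 3 on the bile acid axis and 6 among Ppara targets. Genes with large changes were among those that lost their call in it. They included Gpc3, Egr1, Spry1, Vnn1, Psat1, Phgdh and Gdf15, which kept their direction. Spike-in scaling left 3 co-receptors and 1 receptor-proximal gene, normexp 1 ligand and the strict filter 1 ligand. With an array left out, calls ranged from 1 to 3 among ligands, 6 to 9 among feedback genes, 3 to 7 on the bile acid axis, 6 to 10 among Ppara targets and 1 to 2 among receptor-proximal genes.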
